A study of Mus musculus with 12 samples.

Results

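Rapamycin plus sunitinib (R+S) was compared with sunitinib alone in mouse pancreatic neuroendocrine tumors (PanNETs), using the 4 tumors labelled as combination therapy and the 4 labelled as sunitinib monotherapy out of 12 sequenced tumors. All tumors came from C57Bl6 mice of the RIP1Tag2 line, in which an insulin promoter drives a viral oncogene in pancreatic beta cells, so that the controls carry the same transgene. The mice were treated for 4 days from 15.5 weeks of age with saline, sunitinib or R+S, and the 4 saline-treated tumors serve here as values beside the comparison. Rapamycin alone was not among the groups analysed here. Values per tumor are given in the order of tumors 5, 6, 8 and 12 for sunitinib and of tumors 4, 5, 7 and 10 for R+S. In the labels, sunitinib-treated tumors 5, 6 and 8 share the prefix BX41 and tumor 12 has BX44, whereas R+S-treated tumors 5 and 7 share BZ51, tumor 4 has BZ50 and tumor 10 has BZ75. What a prefix stands for is not stated, and since no prefix occurs in both groups, prefix and treatment cannot be told apart. Whether each tumor came from its own mouse is not stated either, so p-values measure the spread between these tumors only.

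Rapamycin binds the small protein FKBP12, and the complex inhibits mTORC1, the kinase complex that couples amino acid, growth factor and energy signals to protein, nucleotide and lipid synthesis. Its best known effectors, S6 kinase and the translation repressors bound by eIF4E, act on protein synthesis, and part of its effect on RNA runs through the transcription factors ATF4 (amino acid and one-carbon genes), HIF-1 (glycolytic genes) and SREBP (sterol genes). Sunitinib inhibits receptor tyrosine kinases, among them the VEGF and PDGF receptors of blood vessels, and reduces the tumor vasculature.

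Gene counts summed to between 31872342 and 42143690 per tumor in the 8 tumors, and 16645 of 38924 listed genes had enough reads to be tested. Sunitinib-treated tumor 6 stood apart from the other 11 tumors. Its log2 CPM (read counts scaled to the TMM-normalized library size) correlated with theirs at 0.834 to 0.895 across genes, against 0.957 to 0.978 among the other 3 sunitinib-treated tumors and 0.967 to 0.982 among the R+S-treated tumors. The labelled beta cell origin was checked on the insulin genes. *Ins2* was at 10612, 784, 17074 and 43805 CPM with sunitinib and at 26470, 22216, 26710 and 33646 CPM with R+S. Tumor 6 was far below all others, sunitinib-treated tumors 5 and 8 also lay below the R+S range, and tumor 12 lay above it. In bulk tumors, fewer cells of a type and less RNA per cell cannot be told apart. Results below are therefore given with, and for many lists and genes also without, tumor 6. Reads per gene also ran with transcript length to a different degree in each tumor. Spearman's rho between a gene's deviation from its 12-tumor mean and its transcript length, across 16469 genes of each library, was 0.13, -0.02, -0.24 and -0.43 with sunitinib and 0.12, 0.19, 0.23 and 0.19 with R+S. The share of reads outside annotated genes was 11.2 to 17.0% with sunitinib and 16.9 to 18.9% with R+S. Lists of short or long genes are therefore also given after each tumor's trends with length and GC content had been removed.

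The first question was how many genes moved when rapamycin was added. At an adjusted p under 0.05 (edgeR quasi-likelihood test), 438 genes were higher and 762 lower in R+S-treated than in sunitinib-treated tumors, which is 2.63% and 4.58% of the genes tested. Of these, 155 and 253 differed by at least 1 on the log2 scale. Without tumor 6, 701 genes were higher and 991 lower, or 4.17% and 5.89% of 16822 genes. Both fits called 998 genes in the same direction, 83.2% of the first set and 59% of the second. The 4 R+S-treated tumors all lay above the 4 sunitinib-treated tumors in 1481 genes (8.9%) and all below them in 1619 genes (9.73%). The median log2 fold change over all genes was -0.02 with and 0.03 without tumor 6.

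These counts sat close to the threshold and depended on single tumors. The lowest adjusted p was 0.0143, and 5067 genes had an unadjusted p under 0.05. Without R+S-treated tumors 4, 5 or 7, the same test called 0, 0 and 0 genes higher and 1, 0 and 1 lower, with 4162, 3870 and 4209 genes at an unadjusted p under 0.05, and without tumor 10 it called 128 and 186. Without sunitinib-treated tumor 5, 8 or 12, it called 1170 and 1691, 273 and 457, and 196 and 390. When only the 8 tumors entered the fit, 0 genes were higher and 3 lower, with 3971 at an unadjusted p under 0.05, and DESeq2 on all 12 tumors called 1193 and 1815. Of the 1200 genes called, 100% of those tested had the same direction in each of these fits. The genes were picked for their difference in largely the same tumors, so the shared direction is no independent support. In the text, rose and fell refer to the fit of all 12 tumors. List counts are to be read beside 2.63% higher and 4.58% lower over all genes, or 4.17% and 5.89% without tumor 6.

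**Figure D1:**
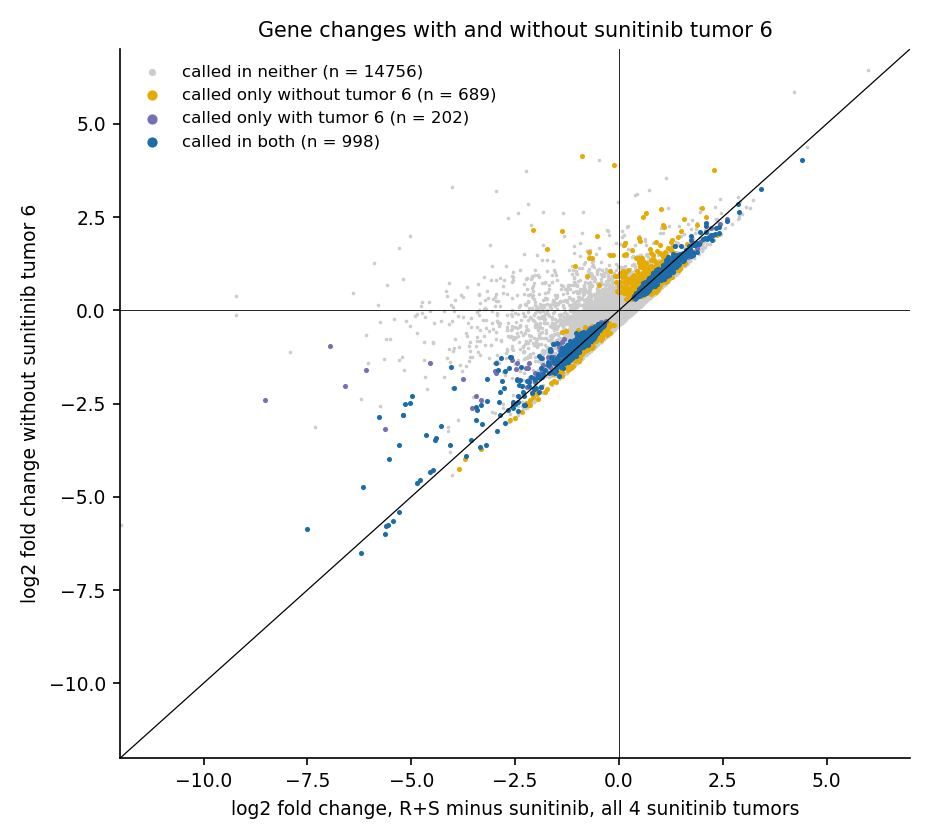
Log2 fold change (R+S minus sunitinib) of each gene with all 4 sunitinib-treated tumors on the x axis and without sunitinib-treated tumor 6 on the y axis, for genes tested in both fits, with the line of equality. Colours mark calls at an adjusted p under 0.05, with 998 genes called in both fits.

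Single genes of the mTOR pathway were called in both directions. Of 65 listed components, 3 rose and 3 fell, 4.62% each way beside 2.63% and 4.58% of all genes, and their median log2 fold change was 0.05. Without tumor 6, 5 rose and 6 fell, with a median of 0.09. *Eif4ebp1* (ENSMUSG00000031490, GRCm38 chr8:27260329-27276674), which encodes the translation repressor 4E-BP1, was at 30.4, 22, 28.4 and 26.4 CPM with sunitinib and at 5.94, 7.52, 6.53 and 6.98 CPM with R+S. The groups did not overlap, and its log2 fold change was -1.99 ± 0.32 (SE, adjusted p = 0.0221). Saline-treated tumors had 12.6, 29.9, 12.3 and 9.44 CPM. *Ddit4*, which encodes the stress-induced mTORC1 inhibitor REDD1, fell from 32.5, 103, 32.5 and 36.7 CPM to 15.1, 11.2, 14.1 and 15.4 CPM. Its log2 fold change was -1.87 ± 0.35 with tumor 6, the highest value, and -1.28 without it (adjusted p = 0.0252 and 0.0144). *Deptor*, an mTOR-binding inhibitor, rose from 99.1, 91.7, 98.2 and 69 CPM to 133, 149, 129 and 125 CPM (0.58 ± 0.12, adjusted p = 0.0277), but with GC content and length removed its log2 fold change was 0.23 (adjusted p = 0.184). *Sesn1*, which encodes a p53-induced regulator of mTORC1, also rose (0.65 ± 0.14, adjusted p = 0.0277). For single genes with non-overlapping groups, the two-sided exact permutation test of 4 against 4 tumors gave p = 0.0286, the smallest it allows.

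Part of the genes that ATF4 is known to drive, among them enzymes of serine synthesis, fell. Of 33 ATF4 targets, 12 fell and 0 rose (36.4% against 4.58% of all genes), and the median log2 fold change was -0.93. The R+S-treated tumors lay below all sunitinib-treated ones in 16 (48.5%, against 9.73% of all genes). Without tumor 6, 18 fell and the median was -0.98. The values changed little when GC content and length were removed, with 12 members lower and a median of -0.93. *Psat1* (ENSMUSG00000024640, chr19:15904678-15947337), the aminotransferase of serine synthesis, was at 156, 167, 148 and 138 CPM with sunitinib and at 53.2, 55.1, 66.2 and 57.5 CPM with R+S. The lowest sunitinib-treated tumor was far above the highest R+S-treated one, and the log2 fold change was -1.39 ± 0.18 (adjusted p = 0.0143). *Shmt2* (ENSMUSG00000025403, chr10:127517123-127522444), which passes the serine carbon to mitochondrial folate, was at 119, 87.4, 119 and 142 CPM with sunitinib and at 42.2, 43.3, 56.1 and 48.7 CPM with R+S (-1.29 ± 0.17, adjusted p = 0.0143). *Psph*, the last enzyme of serine synthesis, went from 19.6, 22.5, 20 and 19 CPM to 11.1, 10, 10.4 and 11.5 CPM (-0.91 ± 0.16, adjusted p = 0.0246). The first enzyme of that route, *Phgdh*, picked after its values had been seen, was at 23.6, 20.9, 31.2 and 35.5 CPM with sunitinib and at 6.91, 6.59, 6.8 and 5.59 CPM with R+S (-2.10 ± 0.39, adjusted p = 0.0252). *Atf4* itself was at 341, 334, 391 and 468 CPM with sunitinib and at 197, 193, 213 and 209 CPM with R+S, without overlap (-0.92 ± 0.15, adjusted p = 0.0233). Its saline values of 304, 383, 277 and 245 CPM lay above all R+S-treated tumors. *Ddit3*, which encodes the ATF4-induced factor CHOP, fell from 70, 84.7, 64 and 84.3 CPM to 24.2, 41.4, 38.4 and 29.4 CPM (-1.18 ± 0.28, adjusted p = 0.0346, and 0.0701 with GC content and length removed). *Asns*, the asparagine synthetase, also picked afterwards, had a log2 fold change of -0.69 with tumor 6 (adjusted p = 0.146) and -0.95 without it (adjusted p = 0.0218).

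The promoters of the listed ATF4 targets, called or not, were searched for the letters TGATGNAA, the core of the element that ATF4 binds with a C/EBP partner, on both strands from 250 bases before to 50 bases after each RefSeq start (GRCm38.p6). Of the 30 ATF4 targets with a promoter sequence, 9 held a match, or 30%, against 340 of 12036 tested genes, or 2.82%. The list was made of known ATF4 targets, so this excess over all genes says nothing about rapamycin. Among the 11 targets that fell, 3 held one (27.3%, near the share of the whole list). Only 12 of the 20 tRNA synthetases tested had a promoter sequence, and 5 of these held a match. Of the 7 synthetases that fell, 2 had a promoter sequence, and 0 of these held one. The others that fell were not searched. The stretches around the match are shown for the 3 genes that fell, read along the gene's strand, because they show which bases the search found. Capitals mark the match, which in *Nupr1* and *Trib3* is the reverse complement. They lie at chr7:126625533-126625620 (*Nupr1*), chr11:120643804-120643891 (*Pycr1*) and chr2:152344011-152344086 (*Trib3*), all on the minus strand.
Nupr1: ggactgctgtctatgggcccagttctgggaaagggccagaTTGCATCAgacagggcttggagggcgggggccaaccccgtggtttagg
Pycr1: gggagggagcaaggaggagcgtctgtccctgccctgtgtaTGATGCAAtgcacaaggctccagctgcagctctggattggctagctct
Trib3: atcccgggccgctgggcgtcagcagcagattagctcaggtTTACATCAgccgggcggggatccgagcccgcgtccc
A match is a description of these letters and no evidence of binding. *Pycr1* and *Trib3* were likewise picked after their values had been seen. *Pycr1*, the last enzyme of proline synthesis, was at 31.3, 17.5, 46 and 33.7 CPM with sunitinib and at 13, 9.39, 13.2 and 14.8 CPM with R+S (-1.35 ± 0.35, adjusted p = 0.0422). *Trib3*, a pseudokinase induced by ATF4 and CHOP, was at 44.8, 22.9, 47.7 and 44.2 CPM against 5.71, 12.1, 16.7 and 9.23 CPM (-1.87 ± 0.41, adjusted p = 0.0295). *Nupr1*, a small stress-induced chromatin protein, was at 372, 527, 735 and 279 CPM against 37.5, 130.1, 19.9 and 75.1 CPM (-2.87 ± 0.63, adjusted p = 0.0299), with saline values of 4.43 to 23.8 CPM. None of the 3 genes had overlapping groups. *Nupr1* is also strongly expressed in stressed acinar cells, whose markers are given below.

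Part of the translation machinery was lower as well. Of 20 cytosolic tRNA synthetases, 7 fell and 0 rose (35%), with a median log2 fold change of -0.56, and 13 fell without tumor 6. *Vars*, which charges valine, was at 182, 177, 158 and 208 CPM with sunitinib and at 96, 98.5, 112 and 119 CPM with R+S (-0.77 ± 0.11, adjusted p = 0.0143). *Farsb*, *Rars* and *Lars*, which serve phenylalanine, arginine and leucine, fell by 0.63, 0.69 and 0.75 on the log2 scale. Of 45 translation factors, 7 fell and 0 rose (15.6%), 10 fell without tumor 6, and *Eif4a1*, the helicase that unwinds leader sequences, had the smallest p among them. It was at 151, 222, 167 and 242 CPM with sunitinib and at 103, 89.4, 100.1 and 108 CPM with R+S, and no R+S-treated tumor reached the sunitinib range (-0.97 ± 0.15, adjusted p = 0.0211). Subunits of the initiation factors eIF2, eIF3 and eIF2B fell too, with log2 fold changes of -0.48 for *Eif2s1*, -0.87 for *Eif3i* and -0.56 for *Eif2b1*. The summed level of the translation factors overlapped between the groups, at 13074 to 15212 CPM with sunitinib and 12885 to 15676 CPM with R+S.

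Ribosome assembly showed the same direction. Of 48 ribosome biogenesis genes, 16 fell and 0 rose (33.3%). In 28 (58.3%, against 9.73% of all genes), the R+S-treated tumors lay below all sunitinib-treated ones. The median was -0.45 with, -0.42 without tumor 6 and -0.43 with GC content and length removed. *Nop58*, a core protein of the box C/D particles that methylate ribosomal RNA, was at 116, 148, 117 and 157 CPM with sunitinib and at 76.2, 69.8, 75.6 and 76.3 CPM with R+S (-0.85 ± 0.11, adjusted p = 0.0143). *Nhp2* fell from 15.1, 25.6, 20.5 and 30.6 CPM to 9.88, 9.19, 10.9 and 10.4 CPM (-1.18 ± 0.21, adjusted p = 0.0241). *Rrp12* and *Ftsj3*, both needed for maturation of preribosomes, fell by 0.71 and 0.92 on the log2 scale. *Wdr74*, another preribosome factor, was among the 8 genes with the smallest p of all that fell (-0.97 ± 0.14, adjusted p = 0.0143).

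For the proteins of the ribosome itself, the result moved with transcript length. Of 82 cytosolic ribosomal protein genes, 12 fell and 0 rose (14.6%), with a median of -0.50, and without tumor 6, 24 fell with a median of -0.55. The R+S-treated tumors lay below all sunitinib-treated ones in 44 (53.7%, against 9.73% of all genes). With GC content and length removed, 5 fell and the median was -0.24. With 1 of the 8 tumors left out at a time, the median ran from -0.58 to -0.34. The list summed to 20664 CPM in sunitinib-treated tumor 12 and to 12325 to 13539 CPM in the other sunitinib-treated tumors. The median transcript of this list has 1076 bases, against 3151 over all genes tested. Many of these genes also have processed copies in the genome, and a read with more than 1 alignment was left uncounted, so their levels are undercounted. *Rpl12* was at 14.7, 20.8, 13.2 and 16.8 CPM with sunitinib and at 7.16, 6.97, 6.55 and 7.5 CPM with R+S (-1.22 ± 0.17, adjusted p = 0.0143), with saline values of 7.95 to 9.79 CPM. *Rpl10a*, *Rps2* and *Rpl35* fell by 0.92, 1.08 and 0.75 on the log2 scale, and with GC content and length removed *Rps2* and *Rpl35* lost their calls (adjusted p = 0.0716 and 0.0586).

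**Figure D2:**
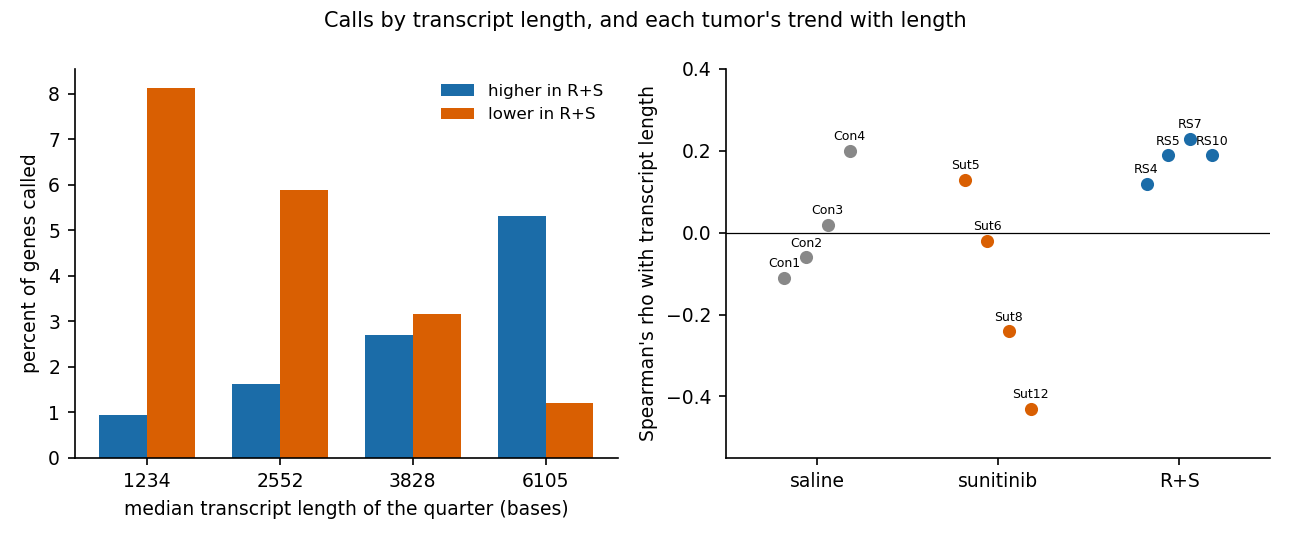
Left, the percentage of genes called higher or lower in R+S-treated tumors in 4 equal classes of genes by transcript length. Right, Spearman's rho between each gene's deviation from its mean and transcript length, 1 point per tumor, with all 4 R+S-treated tumors above 0 and sunitinib-treated tumors 8 and 12 at -0.24 and -0.43.

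Length moved with the calls over all genes. Among the shortest of 4 equal classes of genes, with a median transcript of 1234 bases, 0.947% rose and 8.14% fell, whereas among the longest class, with a median of 6105 bases, 5.32% rose and 1.21% fell. The part of length in the comparison was not tested beyond the fit with its trend removed, which called 349 genes higher and 697 lower, of which 261 and 499 were also called without that step.

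Nuclear genes of the mitochondria fell in large numbers. Of 75 subunits of the respiratory chain and ATP synthase, 26 fell and 0 rose (34.7%), with a median of -0.65, and 35 fell without tumor 6. Of 76 mitochondrial ribosomal proteins, 24 fell and 0 rose (31.6%), with a median of -0.50. These lists also hold short transcripts, and with GC content and length removed 17 and 14 fell and the medians were -0.35 and -0.40. With 1 of the 8 tumors left out at a time, the medians ran from -0.79 to -0.45 and from -0.62 to -0.35. Summed over the respiratory subunits, sunitinib-treated tumor 12 had 12789 CPM and the other sunitinib-treated tumors 7444 to 9382 CPM. The R+S-treated tumors had 5957 to 7214 CPM. *Mrpl12*, a mitochondrial ribosome subunit that also binds the mitochondrial RNA polymerase, was at 38.7, 60.3, 43.6 and 68.5 CPM with sunitinib and at 23.4, 20.1, 25.2 and 23.4 CPM with R+S (-1.20 ± 0.18, adjusted p = 0.0179). *Cox5b*, a subunit of cytochrome c oxidase, went from 49.7, 70, 63.9 and 110.1 CPM to 30.8, 34.4, 37.4 and 35.2 CPM (-1.09 ± 0.22, adjusted p = 0.0261). *Ndufa3* of complex I and *Atp5g1* of the ATP synthase fell by 1.14 and 1.05 on the log2 scale. Of 30 genes of the TCA cycle and pyruvate oxidation, 3 fell, and *Mdh1*, *Pdhb* and *Idh3b* had log2 fold changes of -0.76, -0.44 and -0.45, of which *Idh3b* lost its call without tumor 6 (adjusted p = 0.069).

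**Figure D3:**
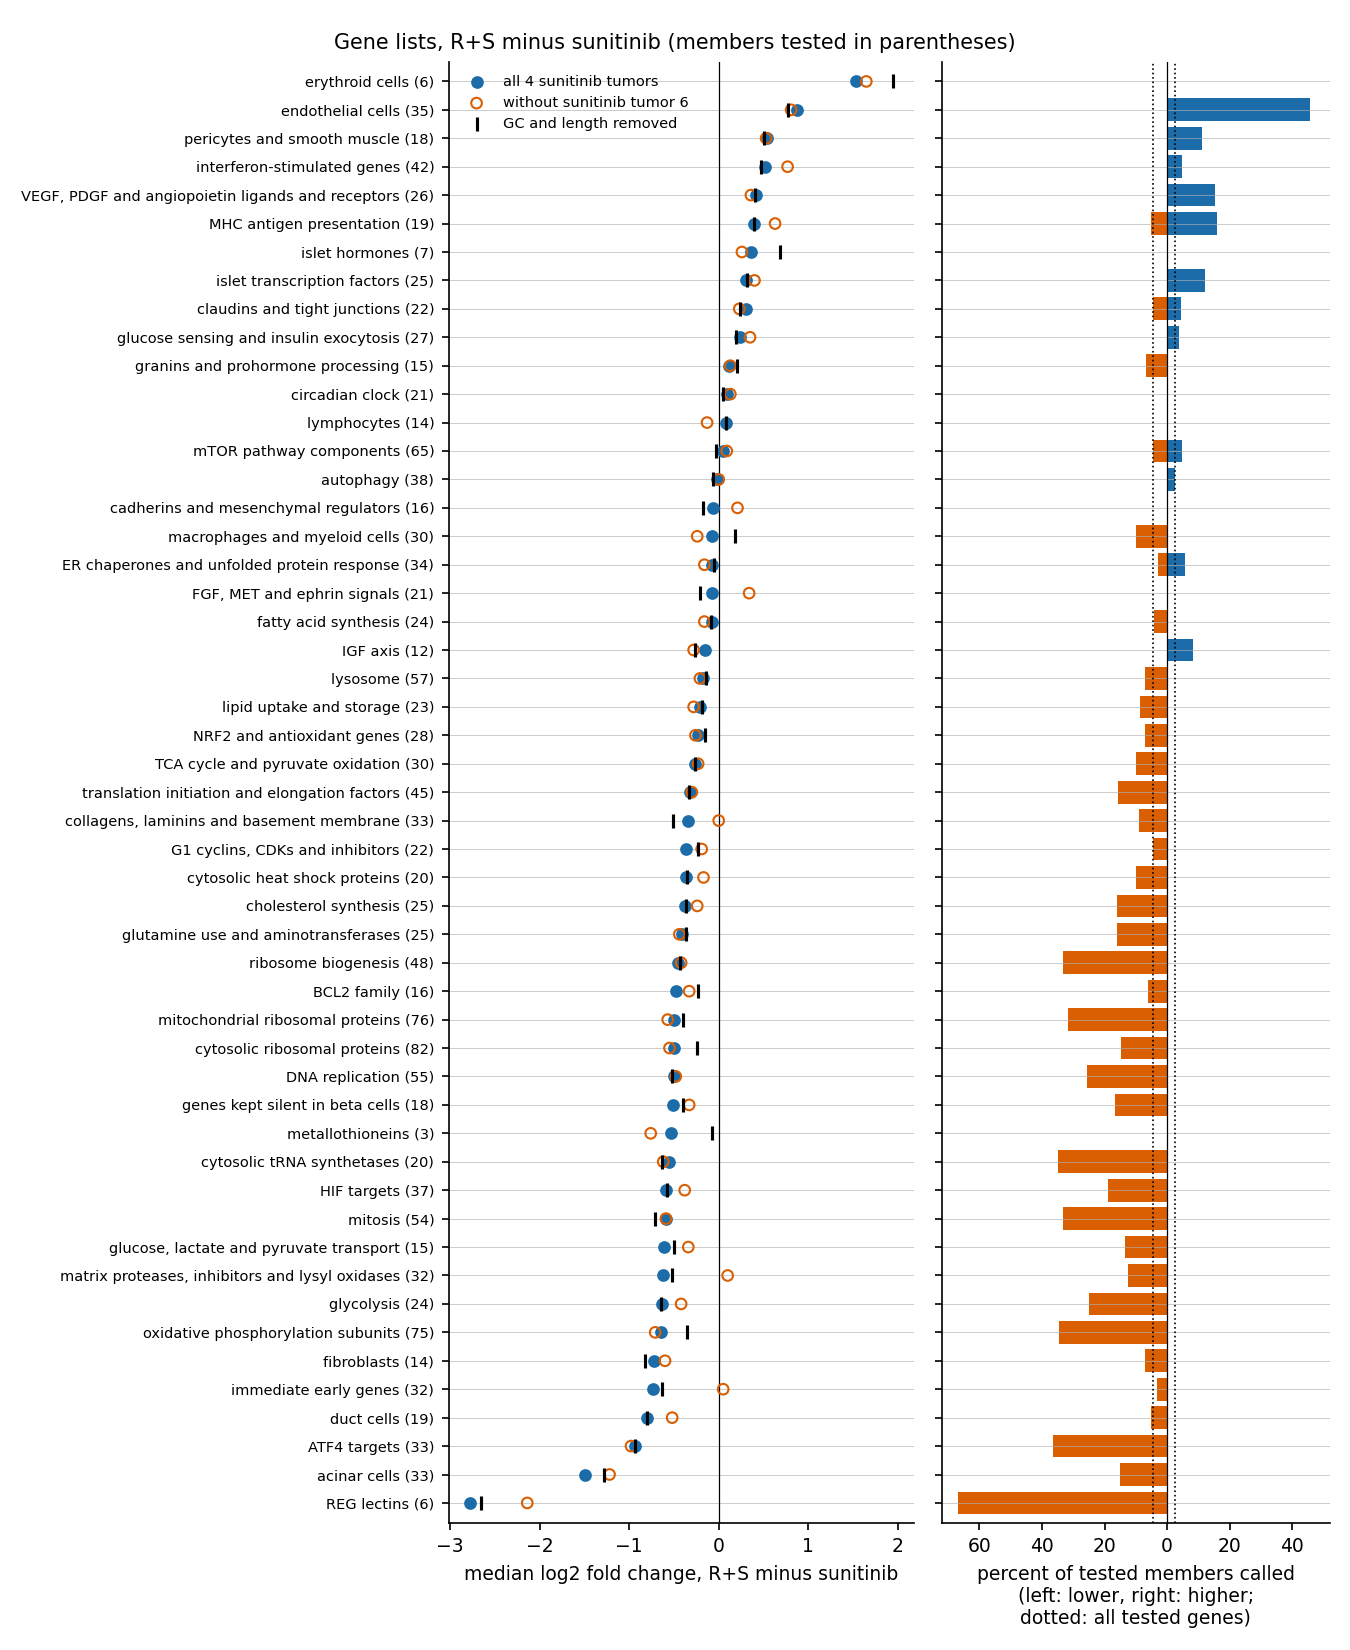
For each gene list, left, the median log2 fold change (R+S minus sunitinib) with all tumors (filled), without sunitinib-treated tumor 6 (open) and with GC content and length removed (bars), and right, the percentage of tested members called lower or higher. Dotted lines mark 4.58% lower and 2.63% higher over all genes, and the lists of growth and metabolism extend to the left whereas endothelial genes extend to the right.

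Glycolytic genes, which the study had followed as a mark of hypoxic tumor cells under sunitinib, were lower in part. Of 24 glycolysis genes, 6 fell and 0 rose (25%), and the median was -0.63 with and -0.42 without tumor 6. Of 37 HIF targets, 7 fell and 0 rose (18.9%), with medians of -0.59 and -0.38. The R+S-treated tumors lay below all sunitinib-treated ones in 29.2% of glycolysis genes and 13.5% of HIF targets, against 9.73% of all genes. Summed levels of both lists overlapped. Glycolysis genes summed to 2666 to 6344 CPM with sunitinib and 2076 to 2986 CPM with R+S. For HIF targets the sums were 1587 to 3037 CPM and 1796 to 2351 CPM. *Ldha*, which converts pyruvate to lactate, was at 52.8, 340.4, 25.5 and 66.9 CPM with sunitinib and at 18.1, 16.4, 16.2 and 13.6 CPM with R+S. The R+S values lay within the saline range of 12.7 to 18.5 CPM and below all sunitinib-treated tumors, and the log2 fold change was -2.92 ± 0.65 with tumor 6 and -1.59 without it (adjusted p = 0.0306 and 0.0195). *Pgk1*, a kinase of lower glycolysis, went from 29, 46.5, 18.8 and 54.5 CPM to 14.9, 11.6, 15.6 and 9.98 CPM (-1.52 ± 0.30, adjusted p = 0.0258). *Tpi1*, the triose isomerase, went from 435, 761, 255 and 644 CPM to 227, 199, 219.6 and 124 CPM (-1.44 ± 0.30, adjusted p = 0.0277). *Eno1* and *Pfkp* fell by 1.07 and 1.13 on the log2 scale without overlap. *Ldha* and *Pgk1* have processed copies and are undercounted here. *Hif1a*, which encodes the oxygen-regulated subunit of HIF-1, was at 138, 100.2, 99.9 and 74.3 CPM with sunitinib and at 127, 133, 118 and 113 CPM with R+S. These ranges overlap, and the difference of 0.25 ± 0.16 did not pass the test (adjusted p = 0.306).

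Transporters of glucose and lactate differed in how far the tumors separated. *Slc2a1* (ENSMUSG00000028645, chr4:119108711-119137983), which encodes the glucose transporter GLUT1, was at 47.8, 46, 28 and 44.8 CPM with sunitinib and at 21.5, 27.5, 27.5 and 19.7 CPM with R+S. The groups did not overlap, though sunitinib-treated tumor 8 lay just above the highest R+S-treated tumors (-0.79 ± 0.20, adjusted p = 0.0388). Saline-treated tumors had 16.1 to 24 CPM. *Slc16a3*, which encodes the lactate exporter MCT4, was at 52, 78.4, 12.9 and 54.6 CPM with sunitinib and at 12.2, 12.2, 15.1 and 6.29 CPM with R+S. Tumor 8 lay within the R+S range, and the log2 fold change was -2.11 ± 0.44 (adjusted p = 0.0277), whereas the exact permutation test gave p = 0.0571. *Slc16a1*, which encodes the lactate importer MCT1, was at 9.72, 82.4, 3.11 and 3.88 CPM with sunitinib and at 2.91, 2.9, 4.05 and 1.88 CPM with R+S. Its difference was smaller without tumor 6, being -3.08 ± 0.97 with it and -0.92 without it (adjusted p = 0.0689 and 0.234). *Slc2a2*, which encodes the beta cell glucose transporter GLUT2, was at 124, 2.04, 98.9 and 69.8 CPM against 69, 47.9, 121 and 233 CPM, with no difference beyond the spread (0.67 ± 0.80, adjusted p = 0.587). *Ldhb*, the other lactate dehydrogenase subunit, had a log2 fold change of 0.06 ± 0.31 and of -0.20 without tumor 6.

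Amino acid uptake and transamination were represented by a list of 25 genes, of which 4 fell and 0 rose (16%), and 7 fell without tumor 6. *Slc38a5*, a glutamine and serine transporter of islet cells, was at 905, 383, 1442 and 2081 CPM with sunitinib and at 379.6, 134, 323 and 168 CPM with R+S. Tumor 6 lay just above the highest R+S-treated tumor and the other 3 well above it, and the log2 fold change was -2.26 ± 0.47 with and -2.55 without tumor 6 (adjusted p = 0.0277 and 0.0168). All saline-treated tumors, at 1090 to 1290 CPM, lay above the R+S range. *Slc38a3*, a related transporter, was at 17.1, 27.5, 19.9 and 4.43 CPM against 2.64, 3.99, 3.02 and 5.15 CPM (-2.22 ± 0.49, adjusted p = 0.0305), with tumor 12 inside the R+S range. *Got2*, the mitochondrial aspartate aminotransferase, fell by 0.54 on the log2 scale and lost its call without tumor 6 (adjusted p = 0.062). *Gpt2*, the mitochondrial alanine aminotransferase, was at 41.4, 25.1, 38.6 and 36.4 CPM against 20.5, 20.6, 25.8 and 21.6 CPM (-0.68 ± 0.19, adjusted p = 0.0559), and passed the test without tumor 6 (-0.81, adjusted p = 0.0268). *Gls2*, the liver-type glutaminase, was at 47.5, 23.8, 42.6 and 47.7 CPM against 37.8, 28.9, 42.6 and 42.7 CPM, with a difference of -0.09 ± 0.22 (adjusted p = 0.805).

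Lipid genes were covered by 3 lists. Of 25 cholesterol synthesis genes, 4 fell and 0 rose (16%), and the list median was -0.38. *Fdps*, *Cyp51*, *Acat2* and *Ebp*, enzymes of that pathway, had log2 fold changes of -0.72, -0.72, -0.79 and -0.62. The groups overlap for *Ebp*, which lost its call without tumor 6 (adjusted p = 0.0613). Without tumor 6, 4 genes of the list fell and its median was -0.24. *Tmem97*, a sterol-regulated membrane protein outside that list, fell from 41.5, 45.6, 58.2 and 35.4 CPM to 17.4, 19, 15.8 and 20.7 CPM (-1.31 ± 0.18, adjusted p = 0.0143). Of 24 fatty acid synthesis genes, *Elovl1* alone was called (-0.98 ± 0.23, adjusted p = 0.0328). Of 23 genes of lipid uptake and storage, 2 fell. *Fabp5*, a fatty acid carrier, was at 26.5, 99.8, 43.6 and 64.3 CPM with sunitinib and at 10.8, 8.16, 14.4 and 11.1 CPM with R+S, and R+S-treated tumors also lay below the saline values of 18.9 to 26.3 CPM (-2.40 ± 0.35, adjusted p = 0.0147). *G0s2*, an inhibitor of lipolysis, fell by 2.01 on the log2 scale from levels of 1.8 to 3.87 CPM.

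Part of the genes of mitosis and DNA replication fell. Of 54 mitosis genes, 18 fell and 0 rose (33.3%), and the median was -0.59 both with and without tumor 6. Of 55 DNA replication genes, 14 fell and 0 rose (25.5%), with a median of -0.50. Removing GC content and length left 23 and 18 lower, with medians of -0.71 and -0.52. *Ccnb1*, the mitotic cyclin B1, was at 80, 72.4, 75 and 77.3 CPM with sunitinib and at 36.6, 27.2, 37 and 46.5 CPM with R+S, while saline-treated tumors had 63.5 to 99.9 CPM (-1.05 ± 0.18, adjusted p = 0.0233). *Aurka*, the spindle kinase, went from 54, 46, 69.7 and 77.6 CPM to 30.8, 23.3, 30.8 and 39.4 CPM (-0.99 ± 0.19, adjusted p = 0.0257). *Tpx2* and *Dlgap5*, spindle proteins, fell by 0.92 and 0.94 on the log2 scale. *Prim2*, a primase subunit, fell from 34.8, 51.7, 37.1 and 47.1 CPM to 24.9, 25.7, 26.4 and 25.9 CPM (-0.73 ± 0.14, adjusted p = 0.0252). *Chaf1b* and *Tyms*, which serve chromatin assembly and thymidylate synthesis, fell by 0.96 and 0.77. *Mki67*, the common proliferation marker, was at 973, 1230, 1180 and 884 CPM against 558, 488, 707 and 917 CPM. R+S-treated tumor 10 lay within the sunitinib range, and the difference of -0.68 ± 0.25 did not pass the test (adjusted p = 0.105, exact permutation p = 0.0571). Of 22 G1 cyclins, CDKs and inhibitors, 1 fell (4.55%, near the share of all genes), and 3 without tumor 6. It was *Cdkn2a*, a locus of cell cycle inhibitors, which went from 75.6, 86.1, 114 and 105 CPM to 57.2, 59.4, 60.9 and 61.4 CPM (-0.67 ± 0.13, adjusted p = 0.0258), but with GC content and length removed its log2 fold change was -0.23 (adjusted p = 0.364). Of 16 BCL2 family genes, 1 fell, and 3 without tumor 6. It was *Bad*, which promotes apoptosis (-0.66 ± 0.16, adjusted p = 0.0352, and 0.0586 with GC content and length removed).

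**Figure D4:**
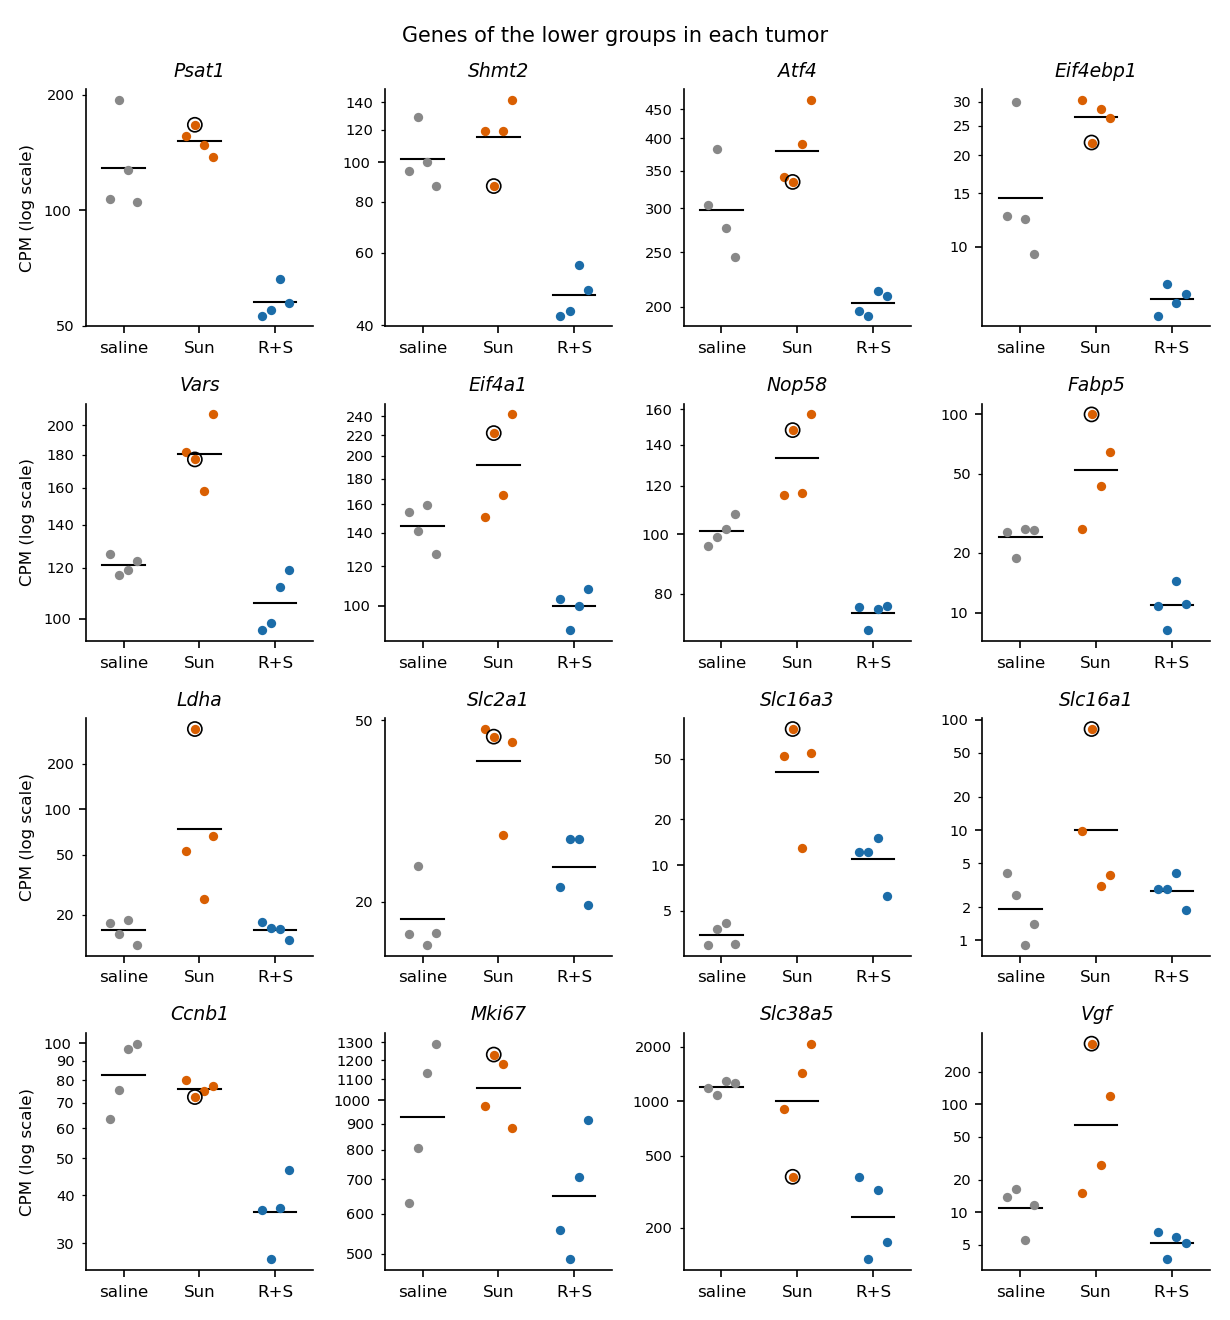
CPM of 16 genes on log axes in saline-treated, sunitinib-treated (Sun) and R+S-treated tumors, 1 point per tumor, with bars at the geometric mean and a ring around sunitinib-treated tumor 6. The R+S-treated tumors lie below all sunitinib-treated tumors in every panel other than Slc16a1, Slc16a3 and Mki67.

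Lysosome and autophagy genes held few calls. Of 57 lysosomal genes, 4 fell and 0 rose (7.02%, beside 4.58% of all genes), with a median of -0.18. Of 38 autophagy genes, 1 rose and 0 fell (2.63%, beside 2.63% of all genes), with a median of -0.02. *Tfeb*, a transcription factor of lysosomal genes that mTORC1 holds in the cytoplasm, fell by 0.59 on the log2 scale (adjusted p = 0.047), and with GC content and length removed its log2 fold change was -0.35 (adjusted p = 0.121). *Ctsz*, a lysosomal protease, went from 178, 262, 247 and 261 CPM to 135, 92.6, 92.1 and 133 CPM (-1.07 ± 0.17, adjusted p = 0.0233). *Atg13*, a subunit of the kinase complex that starts autophagy and an mTORC1 substrate, was at 83.5, 81.5, 80.7 and 82.3 CPM with sunitinib and at 128, 122, 119.7 and 130 CPM with R+S. Each group was tight and they did not overlap (0.61 ± 0.09, adjusted p = 0.0189). In the unfolded protein response, *Dnajb9* and *Atf6*, an ER co-chaperone and an ER stress sensor, rose by 0.85 ± 0.16 and 0.62 ± 0.15 on the log2 scale, while *Ddit3* fell, and the list of 34 had a median of -0.08. The log2 fold change of *Atf6* was 0.32 with GC content and length removed (adjusted p = 0.143).

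Genes that rose included several of islet cells. Of 25 islet transcription factors, 3 rose and 0 fell (12% against 2.63% of all genes), with a median of 0.30 and of 0.40 without tumor 6. Called or not, 17 of them had a positive and 8 a negative log2 fold change, between -4.01 and 1.79. *Rfx6*, needed for islet cell differentiation, was at 247, 173, 218 and 145 CPM with sunitinib and at 436, 509, 362 and 289 CPM with R+S (1.03 ± 0.20, adjusted p = 0.0261). *Glis3*, an activator of the insulin gene, rose from 52.2, 10.2, 39 and 22.4 CPM to 81.5, 137, 91.6 and 116 CPM (1.79 ± 0.40, adjusted p = 0.0313). *St18* rose by 0.89 ± 0.24 and missed the threshold without tumor 6 (adjusted p = 0.0458 and 0.0514). Of 27 genes of glucose sensing and insulin exocytosis, 1 rose (3.7%, beside 2.63% of all genes), and 4 rose and 1 fell without tumor 6. It was *Cacna1d*, a calcium channel of insulin release, which was at 150, 162, 108 and 77.1 CPM against 218, 275, 222 and 240.4 CPM (0.94 ± 0.20, adjusted p = 0.0295). The 7 hormone genes themselves did not pass the test with tumor 6, *Ins2* and *Ins1* having log2 fold changes of 0.59 ± 0.75 and 0.66 ± 0.77. Without tumor 6, 1 of the 7 was called lower. With tumor 6, 6 had a positive and 1 a negative log2 fold change, between -2.06 and 2.46. *Vgf*, a granin-like secretory protein, fell from 15, 366, 27.3 and 119 CPM to 6.57, 3.64, 5.82 and 5.12 CPM (-4.64 ± 0.89 with and -3.34 without tumor 6, adjusted p = 0.0257 and 0.0237). Of 18 genes normally kept silent in beta cells, *Ldha*, *Tst* and *Acot7* fell and 0 rose, and *Acot7* lost its call with GC content and length removed (adjusted p = 0.0609).

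Endothelial genes were higher with R+S than with sunitinib, yet below saline. Of 35 endothelial genes, 16 rose and 0 fell (45.7%), 21 did not overlap (60%, against 8.9% of all genes), and the median was 0.87 with and 0.81 without tumor 6, where 12 rose. The summed level of the list was 254 to 326 CPM with sunitinib, 419.9 to 482 CPM with R+S and 1123 to 1498 CPM with saline, and every member had reads. *Pecam1*, the endothelial adhesion molecule CD31, was at 13, 13.8, 19.8 and 11.1 CPM with sunitinib and at 30.9, 28.2, 24.6 and 27.4 CPM with R+S, against 65.5 to 108 CPM with saline (0.95 ± 0.19, adjusted p = 0.0276). *Flt1*, which encodes VEGF receptor 1, was at 4.52, 4.12, 4.99 and 1.6 CPM against 15.3, 12.8, 9.65 and 11.1 CPM (1.68 ± 0.29, adjusted p = 0.0241). *Kdr*, the main VEGF receptor of endothelium, was at 3.52, 5.03, 3.54 and 1.48 CPM against 8.96, 7.5, 6.09 and 8.27 CPM (1.18 ± 0.28, adjusted p = 0.0358). *Robo4*, a receptor that stabilizes vessels, was at 3.04, 2.6, 3.22 and 2.89 CPM against 8.07, 6.57, 6.25 and 8.17 CPM (1.31 ± 0.19, adjusted p = 0.0143). *Tie1* and *Eng* rose by 1.07 ± 0.23 and 0.73 ± 0.14. Of 18 pericyte and smooth muscle genes, *Notch3* and *Rgs5* rose, by 1.11 ± 0.29 and 0.62 ± 0.17, though both missed the threshold without tumor 6 (adjusted p = 0.0508 and 0.0651). Hemoglobin genes of red blood cells summed, with the other erythroid markers, to 1.89 to 5.36 CPM with sunitinib, 3.34 to 22.4 CPM with R+S and 68.9 to 375 CPM with saline.

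Few genes of the interferon response were called with tumor 6 in the fit, and part of those of antigen presentation rose. Of 42 interferon-stimulated genes, 2 rose and 0 fell (4.76%, beside 2.63% of all genes), with a median of 0.52, and without tumor 6, 19 rose with a median of 0.77. Called or not, 38 had a positive log2 fold change. In 8 (19%, against 8.9% of all genes), the R+S-treated tumors lay above all sunitinib-treated ones. *Ddx58*, which encodes the RNA sensor RIG-I, was at 13.7, 16.6, 10.7 and 6.83 CPM with sunitinib and at 23.2, 39, 20.3 and 35.4 CPM with R+S, near the saline values of 21.6 to 34.9 CPM (1.30 ± 0.29, adjusted p = 0.0309). Of 19 genes of MHC antigen presentation, *H2-T23*, *Cd74* and *Ciita* rose (15.8%, beside 2.63% of all genes) and *Psmb10* fell (5.26%, beside 4.58%). Their median was 0.40 with and 0.63 without tumor 6, where 2 were called higher and 1 lower. The R+S-treated tumors lay above all sunitinib-treated ones in 26.3%, against 8.9% of all genes. *Ciita* lost its call without tumor 6 (adjusted p = 0.0639) and with GC content and length removed (0.0626), and *Psmb10* in the latter fit (adjusted p = 0.131). *Cd74*, the invariant chain, was at 45.7, 38.4, 36.2 and 32.6 CPM against 74.3, 54.7, 82.6 and 157 CPM (1.27 ± 0.33, adjusted p = 0.0418, and 0.0505 without tumor 6). The H2 genes are near-identical copies, so counts of *H2-T23* are uncertain.

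Markers of exocrine cells also moved with the groups, and where their RNA came from was not tested. The 33 acinar genes tested summed to 42.6 to 149 CPM with saline, 14073 to 50277 CPM with sunitinib and 3717 to 20133 CPM with R+S. The treated ranges overlap, and 5 of the genes fell and 0 rose (15.2%), with a median of -1.49 and of -1.22 without tumor 6. *Prss3*, a trypsinogen, was at 22.2, 50.2, 520.5 and 16.1 CPM with sunitinib and at 3.66, 2.22, 0.952 and 1.31 CPM with R+S, with no read with saline (-6.22 ± 1.32, adjusted p = 0.0343). *Spink1*, a trypsin inhibitor, went from 75.5, 315, 248 and 72.1 CPM to 22.6, 25.3, 12.9 and 35.5 CPM (-2.88 ± 0.63, adjusted p = 0.0299). Of 6 REG lectin genes, which pancreas expresses on injury, 4 fell, among them *Reg3g* from 33.8, 98.5, 23.3 and 22.5 CPM to 8.52, 3.76, 1.41 and 6.06 CPM (-3.17 ± 0.61 with and -2.42 without tumor 6, adjusted p = 0.0257 with it). Trypsinogen and REG genes are families of close copies, so counts of single members are uncertain. The mean log2 CPM of the acinar genes was -2.82 to 0.49 with saline, 6.97 to 8.75 with sunitinib and 5.13 to 7.10 with R+S. Because it ran with treatment, a fit that holds it as a covariate cannot separate acinar content from treatment. With the mean log2 CPM of the acinar genes as a covariate, 0 genes were called in either direction by edgeR. In that fit, 3546 genes had an unadjusted p under 0.05, and the lowest adjusted p was 0.0531. Of the 1200 genes called without the covariate, 100% had the same direction. They were picked in the same tumors, so this is no independent support.

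Stromal and immune markers gave few calls. Of 14 fibroblast genes, only *Pi16* fell (-1.56 ± 0.42, adjusted p = 0.0471, and 0.0665 without tumor 6), and the list summed to 791 to 1087 CPM with sunitinib and 469 to 583 CPM with R+S without overlap. Called or not, all 14 had a negative log2 fold change, with a median of -0.72 and of -0.60 without tumor 6. In 7 (50%, against 9.73% of all genes), the R+S-treated tumors lay below all sunitinib-treated ones. With GC content and length removed, 3 of the 14 were called lower. Of 30 macrophage and myeloid genes, 3 fell and 0 rose (10%), and the sums of 513 to 1416 CPM and 807 to 1189 CPM overlap. *Gpnmb*, a glycoprotein of phagocytes, went from 63.5, 24.9, 59.1 and 108 CPM to 12.7, 8.74, 20.5 and 10.5 CPM (-2.29 ± 0.56, adjusted p = 0.0372), and *Arg1*, the arginase of activated macrophages, from 1.07, 6.58, 0.501 and 2.57 CPM to 0.0555, 0.253, 0.136 and 0.0495 CPM (-4.40 ± 0.81 with and -3.43 without tumor 6, adjusted p = 0.0252 with it). The sums of 14 lymphocyte genes, 23.3 to 31 CPM and 16.1 to 28 CPM, overlap. The part of these cell types in the differences of other genes was not tested. Among matrix genes, *Lama1*, a laminin chain, fell from 16.9, 24.4, 17.3 and 20.4 CPM to 2.64, 3.16, 7.89 and 3.96 CPM, below the saline values of 10 to 11.9 CPM (-2.16 ± 0.31, adjusted p = 0.0147). *Lamb3* fell by 2.55 and *Col6a3* by 1.45 on the log2 scale.

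The genes with the largest changes that held with and without tumor 6 and did not overlap were led, among those that rose, by *Cabp7* and *Sh3pxd2a*. *Cabp7* (ENSMUSG00000009075, chr11:4736892-4746778), a calcium-binding protein, was at 23, 9.7, 18.8 and 9.56 CPM with sunitinib and at 123, 360.5, 59.8 and 103 CPM with R+S (3.41 ± 0.70, adjusted p = 0.0277). *Sh3pxd2a*, the podosome scaffold TKS5, was at 35.1, 10.9, 23.3 and 15.5 CPM against 97, 270.3, 66.5 and 85 CPM (2.61 ± 0.53, adjusted p = 0.0276), and R+S-treated tumor 5 was the highest for both genes. *Ky* (ENSMUSG00000035606, chr9:102505750-102546239), a protease-like protein known from muscle, was at 26.9, 14.5, 41.9 and 15.5 CPM with sunitinib and at 124, 144, 116 and 144 CPM with R+S, with 41.2 to 58.3 CPM in saline-treated tumors (2.42 ± 0.31, adjusted p = 0.0143). The R+S-treated tumors were close to each other and far above both other groups. The rest of the 12 were *Col6a6*, a collagen chain (2.41), *Casr*, the calcium-sensing receptor (2.34), *Filip1* (2.17), *Pyroxd2* (2.10), *Zkscan16* (2.03), *Il6ra*, the interleukin-6 receptor (1.89), *Ptpn14*, a tyrosine phosphatase (1.87), *Glis3* (1.79) and *Hnf4g* (1.72), with log2 fold changes in parentheses. *Col6a6* and *Il6ra* lost their calls with GC content and length removed (adjusted p = 0.0599 and 0.0663). By smallest p, *Ky* was joined by *Zbtb4*, *Cbx7*, *D3Ertd751e*, *Arhgap39*, *Robo4*, *Atp2b2* and *Atg13*. *Cbx7*, a Polycomb protein, was at 99.2, 64.4, 88.2 and 73.1 CPM against 139, 181, 163 and 176 CPM (1.02 ± 0.14, adjusted p = 0.0143). *Zbtb4*, a methyl-CpG-binding repressor, was at 81.9, 63.8, 68.9 and 69.3 CPM against 116, 140, 118 and 113 CPM (0.78 ± 0.11, adjusted p = 0.0143).

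**Figure D5:**
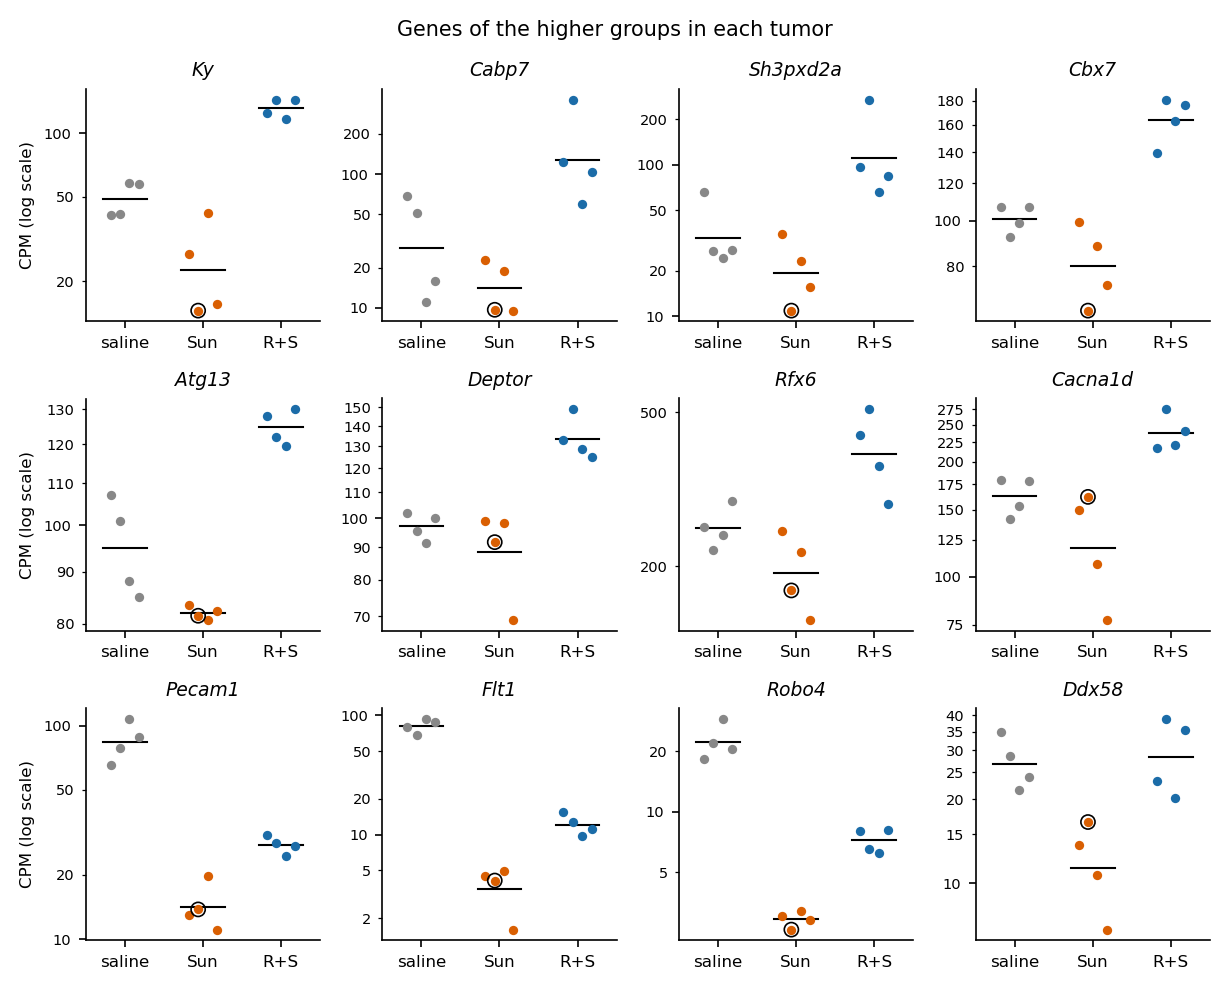
CPM of 12 genes on log axes in saline-treated, sunitinib-treated (Sun) and R+S-treated tumors, 1 point per tumor, with bars at the geometric mean and a ring around sunitinib-treated tumor 6. R+S-treated tumors lie above all sunitinib-treated tumors in each panel, and below all saline-treated tumors for Pecam1, Flt1 and Robo4.

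Among those that fell by the largest amounts, *Prss3*, *Prss1*, *Reg3a*, *Reg3b*, *Reg3g* and *Spink1* are the exocrine genes above, with log2 fold changes between -6.22 and -2.88. The other 6 were *Vgf*, *Ldha*, *Nupr1*, *Tubb2b*, *Gap43* and *Cd24a*. *Tubb2b*, a neuronal tubulin, was at 2.73, 28.6, 3.17 and 6.16 CPM with sunitinib and at 0.999, 1.04, 1.2 and 1.24 CPM with R+S (-3.18 ± 0.69 with and -1.84 without tumor 6, adjusted p = 0.0295 and 0.0218). *Gap43*, a growth cone protein, was at 9.37, 49.9, 14.2 and 9.43 CPM against 4.55, 0.783, 2.61 and 3.86 CPM (-2.81 ± 0.69 with and -1.90 without tumor 6, adjusted p = 0.0373 with it). *Cd24a*, a surface protein of immature epithelial cells, was at 140.5, 807, 90.7 and 199 CPM against 57.8, 26.3, 36.1 and 63.9 CPM (-2.75 ± 0.65 with and -1.64 without tumor 6, adjusted p = 0.0343 with it). In all 3, tumor 6 was the highest and the other sunitinib-treated tumors still lay above the R+S range. By smallest p, *Shmt2*, *Psat1*, *Nop58*, *Tmem97*, *Fam136a*, *Vars*, *Rpl12* and *Wdr74* led the genes that fell. *Fam136a* was at 25.2, 28.6, 27.4 and 31.7 CPM against 14.2, 13.8, 16.3 and 16.2 CPM (-0.90 ± 0.13, adjusted p = 0.0143).

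Some calls turned on tumor 6. *Pip5k1b*, a lipid kinase, was at 64, 9.89, 62.4 and 59.7 CPM with sunitinib and at 99.1, 101, 92.2 and 91.1 CPM with R+S, and was called only without tumor 6 (adjusted p = 0.138 and 0.0168). *Nod1*, a sensor of bacterial wall fragments, *Morc4* and *Ifi30*, a lysosomal thiol reductase, were also called only without it. The groups overlap for *Morc4* and *Ifi30* with tumor 6 and do not without it. In the other direction, *Phf2*, *Tns3*, *Tsen34*, *Esm1* and *Sap30* were called only with tumor 6, with adjusted p from 0.0384 to 0.0389 with it and from 0.0505 to 0.0528 without it, so their values differed little. The medians of the lists of immediate early genes (-0.73 and 0.05), matrix proteases (-0.62 and 0.10), and collagens and laminins (-0.34 and 0.00) lost their negative value without tumor 6. Yet of 33 collagen, laminin and basement membrane genes, 3 fell (9.09%), and 4 were called lower without tumor 6. Of 32 matrix proteases, inhibitors and lysyl oxidases, 4 fell (12.5%), and 5 were called lower without tumor 6. With GC content and length removed, the collagen and laminin median was -0.51 and the matrix protease median -0.52, with 5 and 3 called lower.

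Other lists held few or no calls. Of 32 immediate early genes, only *Atf3* fell (-1.02 ± 0.27, adjusted p = 0.0433). Of 28 NRF2 and antioxidant genes, *Hmox1*, the heme oxygenase, and *Tkt*, a pentose phosphate enzyme, fell by 0.97 and 0.87 on the log2 scale. Of 20 cytosolic heat shock proteins, *Stip1* and *Cacybp* fell by 0.42 each and missed the threshold without tumor 6. Of 22 tight junction genes, 1 rose and 1 fell, the latter being *Cldn11* (-1.05 ± 0.27, adjusted p = 0.0418). *Igf1r*, the IGF1 receptor, rose from 14.1, 8.9, 13.4 and 16.5 CPM to 21.7, 19.1, 23.7 and 34.6 CPM (0.91 ± 0.23, adjusted p = 0.038), but with GC content and length removed its log2 fold change was 0.44 (adjusted p = 0.331). With GC content and length removed, *Atf3*, *Hmox1*, *Stip1*, *Cacybp* and *Cldn11* lost their calls too (adjusted p = 0.0733, 0.0612, 0.121, 0.0626 and 0.0575). The lists of 21 clock genes, 16 cadherins and mesenchymal regulators and 21 genes of FGF, MET and ephrin signaling held no called gene (2 clock genes fell without tumor 6), with median log2 fold changes of 0.09, -0.06 and -0.08, and of 0.13, 0.21 and 0.34 without tumor 6.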

How the data were processed

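RNA of 12 tumors was sequenced from stranded poly(A) libraries, and the authors deposited 1 table of read counts per Ensembl gene for each tumor. The submitters' processing notes name cutadapt 1.2.1, TopHat2 2.0.9, HTSeq 0.5.4p3 and GRCm38. The annotation release and the strand setting of the counting are not given in the sources used here, so overlapping and antisense genes are uncertain, and reads with several alignments (21203479 to 48418780 alignments per tumor) were not counted. The 5 summary lines were removed. No libraries of a group were duplicates, the lowest chi-square per degree of freedom between replicates being 22.8.

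Counts were TMM-normalized, filtered with filterByExpr (minimum count 10, minimum total 15) and tested with the edgeR 4.0.16 quasi-likelihood test in R 4.3.3, with 12 tumors in 1 fit and Benjamini-Hochberg adjustment over all genes. CPM are counts scaled to the normalized library size. Single genes were also tested by a two-sided exact permutation test of mean log2 CPM. The 51 gene lists were described by counts and medians, with no test. Trends with GC content and transcript length were removed per tumor with splines used as offsets (98.9% of tested genes had both). On simulated counts of 16515 genes, 34 of 100 genes changed by 1 and 77 of 100 changed by 2 on the log2 scale were called, with 7 of 16315 unchanged genes. The simulation gave the groups equal means for all other genes and independent noise per gene. It held no outlying tumor and no trend with length, so these rates need not hold for the tumors themselves. Alternatives included DESeq2 1.42.0, other normalizations and filters, fewer tumors, thinned counts, tumors summed by label prefix, an acinar covariate, and each tumor left out.

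Genes were named by rule: those the study measured, up to 12 each way by fold change and 8 by p (average log2 CPM of at least 2, no overlap, called with and without tumor 6 for the former), up to 4 called per list by smallest p (or the 2 most abundant), and up to 5 each that depended on tumor 6. Of the genes this rule picks, 3 are not reported here. The members and lists were chosen with earlier results of these data known. Promoter sequences came from RefSeq.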

Additional observations from a re-analysis of the deposited data

Results flagged for a closer look

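In 20 of 342 groups of 4 tumors, over 171 named genes, the gap between 1 tumor and the nearest other, divided by the range of log2 CPM in the group, passed Dixon's 95% critical value of 0.829. Chance alone gives this in about 1 in 20 groups. Sunitinib-treated tumor 6 was the distant tumor in 7 of them. It was low for Slc2a2 (0.858), Gls2 (0.839), Ins1 (0.845), Pip5k1b (0.963) and Nod1 (0.852), and high for Ddit4 (0.895) and Lck (0.836). Pip5k1b and Nod1 had been named because their calls turned on tumor 6, so their place here was partly set by that choice. Among the other sunitinib-treated tumors, tumor 5 was low for Ctsz (0.84), tumor 8 was low for Slc2a1 (0.878), and tumor 12 was low for Flt1 (0.83) and Ctnnb1 (0.876) and high for Rpl35 (0.882).

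In the R+S group, tumor 4 was high for Tie1 (0.928), Cacybp (0.845) and Pdhb (0.829), tumor 5 was high for Psmb10 (0.895) and Atp2b2 (0.861) and low for Nop58 (0.894), and tumor 10 was high for Adam8 (0.878) and Zkscan16 (0.853). Causes were not tested.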

How the results depend on the processing

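The 438 genes higher and 762 lower became 1193 and 1815 with DESeq2, 209 and 292 without a filter on low counts, 155 and 253 with a log2 change of at least 1, 0 and 3 with only the 8 tumors, 0 and 4 with only 7 tumors and without tumor 6, and 0 and 0 with the acinar score as a covariate (edgeR, 3971, 4659 and 3546 genes at an unadjusted p under 0.05 in the last 3). Leaving out 1 tumor gave from 0 to 1170 genes higher and from 0 to 1691 lower. Without tumor 6, 701 were higher. Other normalizations, thinning and removal of GC content and length stayed within 1.5 times both counts. The cause of these changes was not tested. No paired analysis was possible because the R+S and sunitinib groups share only replicate number 5.

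The sign of 6 named genes, none of them called, changed under some settings. For Ldhb (0.06, and 0.37 without sunitinib-treated tumor 12) it was -0.22 with only 7 tumors, -0.19 with tumors summed by prefix, -0.02 with the acinar covariate, -0.02 without sunitinib-treated tumor 5 and -0.20 without tumor 6. For Gls2 (-0.09, and -0.27 without tumor 6) it was 0.00 without sunitinib-treated tumor 12 and 0.02 without R+S-treated tumor 5, and for Mt1 (-0.36) 0.02 with GC content and length removed. Fgfr1 (-0.28, and -0.49 without sunitinib-treated tumor 5) gave 0.30 with only 7 tumors and 0.32 without tumor 6. Ctnnb1 (-0.01) gave 0.01 without the filter, 0.04 with only 7 tumors, 0.20 summed by prefix, and 0.03, 0.06 and 0.09 without sunitinib-treated tumors 5, 6 and 8 and 0.02 without R+S-treated tumor 4. Cd4 (0.10, and 0.49 without sunitinib-treated tumor 8) gave -0.14 with only 7 tumors, -0.12 without tumor 6 and -0.02 without R+S-treated tumor 7. With at least 10 reads in every tumor, the REG lectins had no value.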
